A study of Mus musculus with 4 samples.

Results

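Gfap-free astrocyte-marker cells were the cells of the forebrain libraries that carried astrocyte genes and no transcript of Gfap, the intermediate filament gene of mature and reactive astrocytes. A cell was a member when it held at least 5 unique molecular identifiers (UMIs, each standing for 1 captured transcript) of Aldh1l1, Aqp4 and Gja1 together. It also held 0 UMIs of Gfap, of the division genes Mki67 and Top2a, of the interneuron genes Dlx1 and Dlx2, of the oligodendrocyte precursor gene Pdgfra and of the ependymal genes Tmem212 and Ccdc153. The rule chose 1536 of 17623 cells left after requiring 2000 to 40000 UMIs, 1000 or more detected genes and no more than 10% of UMIs from mitochondrial genes. These were 49.9% of the 3078 cells that met every criterion but the one on Gfap, of which 825 held 1 to 4 Gfap UMIs and 717 held 5 or more. The levels of the rule genes chose the cells and are therefore given as a description only.

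The study asked what a heterozygous mutation of the chromatin remodeller gene Chd8, induced in midfetal neural stem cells, did to the cells that descended from them. All mice were C57BL/6, carried NestinCreERT2 and a tdTomato reporter, received tamoxifen at E14.5 and were taken at P5. Controls were Chd8+/+, and mutants were Chd8+/F, in which recombination removes the floxed exons of 1 allele in cells where the Nestin promoter drove the recombinase. The tdTomato-positive cells of the telencephalon were sorted and sequenced as 4 single-cell libraries, 2 per genotype, each pooled from 3 mice, so the spread between libraries was the only replicate error. Replicate 1 held 79328841 UMIs in the control and 78211984 in the mutant library, and replicate 2 held 46274374 and 50616343.

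Both libraries of replicate 1 stood apart from both of replicate 2 beyond genotype. The matrix headers name Cell Ranger 7.0.0 in replicate 1 and 5.0.1 in replicate 2. In Gfap-free astrocyte-marker cells Xist, the transcript that silences an X chromosome in females, had 0 and 1 UMIs in replicate 1 and 6204 and 4651 UMIs in replicate 2, while the Y-linked gene Ddx3y had 484 and 376 UMIs in replicate 1 and 0 in replicate 2. The study states that its single-cell samples came from male mice, whereas the counts of Xist and Ddx3y in replicate 2 are those of females. Software version, sex-linked expression and replicate number cannot be told apart, so the main genotype differences are also given within each replicate. No barcode of a Gfap-free cell occurred in more than 1 library, although 8 to 21 of all barcodes were shared between pairs of libraries.

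Astrocytes take up glutamate and GABA released at synapses, buffer potassium, move water and bicarbonate, and supply lipids, lactate and amino acids to neurons. They arise from radial glia late in gestation and multiply in the first postnatal weeks, when many cortical astrocytes hold little Gfap. High Gfap is known from astrocytes at the brain surface and in white matter, from the stem cell niche of the ventricle wall and from injured tissue.

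The label was checked against the marker genes Aldh1l1, Aqp4, Gja1, Slc1a2 and Slc7a10, of which the rule did not use the last pair. Slc1a2, the main glutamate transporter of astrocytes, was found in 1505 of 1536 cells (98.0%). Its level, in UMIs of the gene per 1000000 UMIs of the library's members (CPM), was 3491 in control and 3301 in mutant for replicate 1, and 2955 in control and 2522 in mutant for replicate 2. In cells chosen by Pdgfra in the same libraries its level was between 238 and 369 CPM, in Dlx1 and Dlx2 cells between 218 and 380 CPM and in microglia-marker cells between 87.6 and 170 CPM. Slc7a10, a carrier of serine and glycine, was found in 1177 cells (76.6%), with 297, 316, 158 and 215 CPM. The libraries are in the order control 1, mutant 1, control 2, mutant 2 wherever 4 values are given. In Pdgfra cells, which are not astrocytes by their marker, Slc1a2 was found in 68.7%, 69.1%, 78.9% and 73.8% and Slc7a10 in 16.1%, 18.4%, 12.6% and 15.3% of cells, at median depths of 10459, 9441.5, 8072.5 and 7529 UMIs against 13520.5, 12779, 11979 and 11623.5 UMIs, so for Slc1a2 the level separates the classes more than detection does. Of the 1536 cells, 1390 (90.5%) held at least 4 of the 5 markers, a count that the rule largely set, as it used 3 of them. The samples are labelled neuronal cells, but the list of 5 neuronal genes summed to 63.1, 64.9, 29.6 and 25.8 CPM, led by the tubulin gene Tubb3 at a mean of 14.8 CPM.

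Some members went against the label. In 36 cells both Aldh1l1 and Aqp4 were at 0, so that the rule was met through Gja1 alone, and 16 cells held at least 3 UMIs of endothelial genes. A cell with at least 3 UMIs of the neuronal, excitatory neuron, microglial, endothelial, mural, fibroblast or oligodendrocyte list, which could be a pair of cells in a droplet, was called a possible doublet. There were 82, 72, 39 and 42 of these, 235 in all (15.3% of the cells), and no caller was used to remove them. Results that rested on them are given with and without them.

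The share of Gfap-free astrocyte-marker cells was lower in both mutant libraries than in both controls, but by little within replicate 1. There mutant minus control turned positive under some other limits, such as 0.064 percentage points with a mitochondrial limit of 5%. With 2 libraries per genotype an exact permutation test cannot reach p below 0.05. Gfap-free cells were 480 of 5710 cells (8.41%, 95% exact binomial interval 7.70 to 9.16) in control replicate 1, 463 of 5659 (8.18%, 7.48 to 8.93) in mutant replicate 1, 329 of 2973 (11.1%, 9.96 to 12.2) in control replicate 2 and 264 of 3281 (8.05%, 7.14 to 9.03) in mutant replicate 2. Only the interval of control replicate 2 lay apart from the rest, and the intervals cover counting error only. The mean was 9.74% ± 1.88 (SD, n = 2) in controls and 8.11% ± 0.0957 (SD, n = 2) in mutants, with p = 0.33 in a two-sided exact permutation test, the smallest that 2 against 2 libraries allow. Mutant minus control, in percentage points, came to -0.22 for replicate 1 and -3.02 for replicate 2. Among astrocyte-marker cells 47.3%, 48.8%, 57.5% and 48.5% held no Gfap UMI, with genotype differences of 1.5 points for replicate 1 and -8.99 points for replicate 2 (two-sided exact permutation p = 1). Fewer such cells and more cells of other types cannot be told apart in a share.

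**Figure D1:**
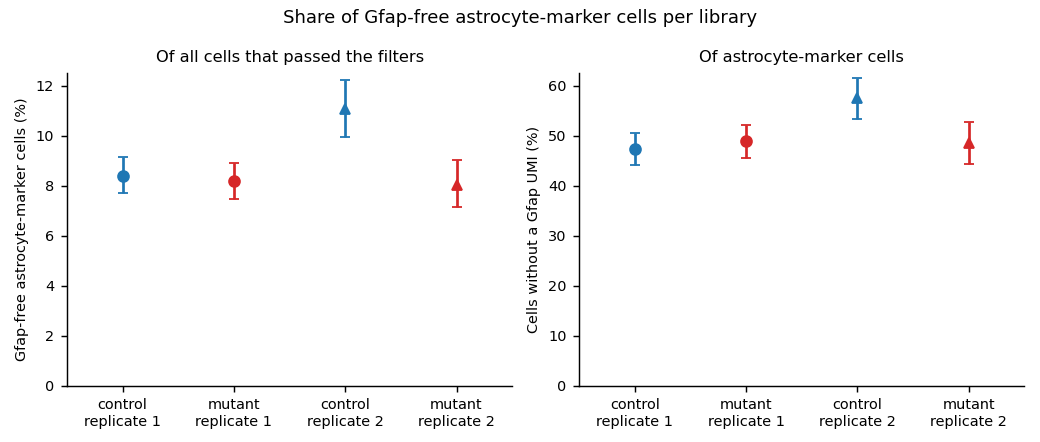
Percent of Gfap-free astrocyte-marker cells in each of the 4 libraries, of all cells that passed the filters (left) and of astrocyte-marker cells (right). Points are libraries and bars are 95% exact binomial intervals; control replicate 2 is highest in both panels, at 11.1% and 57.5%, and the other libraries lie between 8.05% and 8.41% and between 47.3% and 48.8%.

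The cells lay well clear of the marker limit but close to the Gfap limit. Their median sum of Aldh1l1, Aqp4 and Gja1 was 19, 19, 21 and 21 UMIs. Exactly 5 UMIs were held by 17, 23, 16 and 16 of them, and 20, 30, 12 and 13 cells had 4 and met the other criteria. Just outside the Gfap limit lay 144, 126, 62 and 71 cells with 1 Gfap UMI. The median depth of the Gfap-free cells was 13520.5, 12779, 11979 and 11623.5 UMIs, against 16236.5, 15584.5, 14242 and 15378 UMIs in cells with 5 or more Gfap UMIs. Gfap itself is on chr11:102887336-102900912 (minus strand), Aldh1l1 on chr6:90486427-90600203 and Gja1 on chr10:56377330-56402513 (both plus strand, GRCm38).

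Transporters that clear glutamate were among the abundant transcripts. All 6 genes of the glutamate list were above 50 CPM, the level used throughout to call a gene abundant. Outside the rule and mitochondrial genes, 3722 genes counted in every library were abundant, and 13140 genes entered the genotype test. The lists were chosen with earlier results of these data known, so counts of abundant genes per list are a description only. Slc1a3, the glutamate transporter also present in radial glia, stood at 4752, 4926, 4517 and 3857 CPM, above Slc1a2 in every library. Glud1, glutamate dehydrogenase, had a mean of 1191 ± 139.8 CPM (SD, n = 4), and Glul, which turns glutamate into glutamine, had 887 ± 163 CPM. UMIs were counted at the 3′ end, 1 per captured transcript, so levels of different genes are per transcript and were not divided by length.

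Carriers of GABA and amino acids were led by Slc6a11, the GABA transporter GAT-3, with 748, 743, 792 and 800 CPM. Slc1a4, a carrier of neutral amino acids, had a mean of 308 ± 12.98 CPM (SD, n = 4), and Slc6a13, the GABA transporter best known from the meninges, only 2.23 CPM. Of the 12 genes for potassium, bicarbonate, water and gap junctions 10 were abundant. The bicarbonate cotransporter Slc4a4 had a mean of 1874 ± 176 CPM, and the water channel Aqp4 and the connexin gene Gja1, both used by the rule, had 956 ± 130 and 526 ± 43.0 CPM. Gjb6, the other astrocyte connexin and a gene of mature astrocytes, was at 12.1 CPM.

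Among 11 receptors 8 were abundant, among them the endothelin receptor gene Ednrb with 766, 828, 968 and 988 CPM. Grm5, the receptor of immature astrocytes, had 1125 and 1192 CPM in replicate 1 and 440.4 and 447 CPM in replicate 2, and Grm3 had 877, 920.5, 394 and 293 CPM, so the replicates did not overlap for either gene. Both were above Ednrb in replicate 1 and below it in replicate 2. The GABA-B receptor subunit gene Gabbr1 had 377 ± 16.5 CPM. The purine receptor P2ry1 was at 1.16 CPM.

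Lipid genes held the highest levels of the lists, and all 11 of them were abundant. Fabp7, a fatty acid binding protein of radial glia and young astrocytes, reached 21197, 19768, 19018 and 17901 CPM, and Apoe, the main lipid carrier of the brain, 12195, 11372, 14144 and 14205 CPM. Dbi, which binds acyl-CoA, had 6337 ± 867 CPM (SD, n = 4) and Fabp5 had 3563 ± 345 CPM. Of 12 energy genes 6 were abundant, among them the glycolytic gene Aldoc at 873 ± 108 CPM and the lactate dehydrogenase genes Ldhb at 548 ± 103 and Ldha at 239 ± 72.2 CPM, whereas muscle glycogen phosphorylase, Pygm, had 3.45 CPM. The serine pathway was led by Phgdh, its first enzyme, at 515 ± 108 CPM.

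Of 15 secreted, matrix and engulfment genes 11 were abundant. The growth factor gene Ptn had 13397, 13246, 11288 and 12815 CPM, the synaptogenic gene Sparcl1 had 2681 ± 371 CPM (SD, n = 4), and the proteoglycan genes Ncan and Bcan had 1912 ± 335 and 1060 ± 204 CPM. The thrombospondins Thbs1, Thbs2 and Thbs4 lay at 4.299, 3.355 and 0.814 CPM. All 19 transcription factors of the list were abundant. Zbtb20 had 1580, 1567, 1016 and 943 CPM and Id3 had 1500, 1441, 954 and 1191 CPM.

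Npas3 stood at 2793 and 2887 CPM in replicate 1, above the other factors, and at 346 and 413 CPM in replicate 2, below Nfib (698 and 747 CPM), Hes5 and Sox9 among others. Nfia, a driver of astrocyte formation, had 1407, 1374, 504 and 661 CPM. Summed over the 19 factors the level was 13737, 14073, 7665 and 8738 CPM, with no overlap between replicates, and this moved with the Cell Ranger version of the headers. The part of the version in it was not tested. Otx2, the highest of 8 factors of diencephalon and more caudal brain, had between 5.71 and 16.7 CPM.

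**Figure D2:**
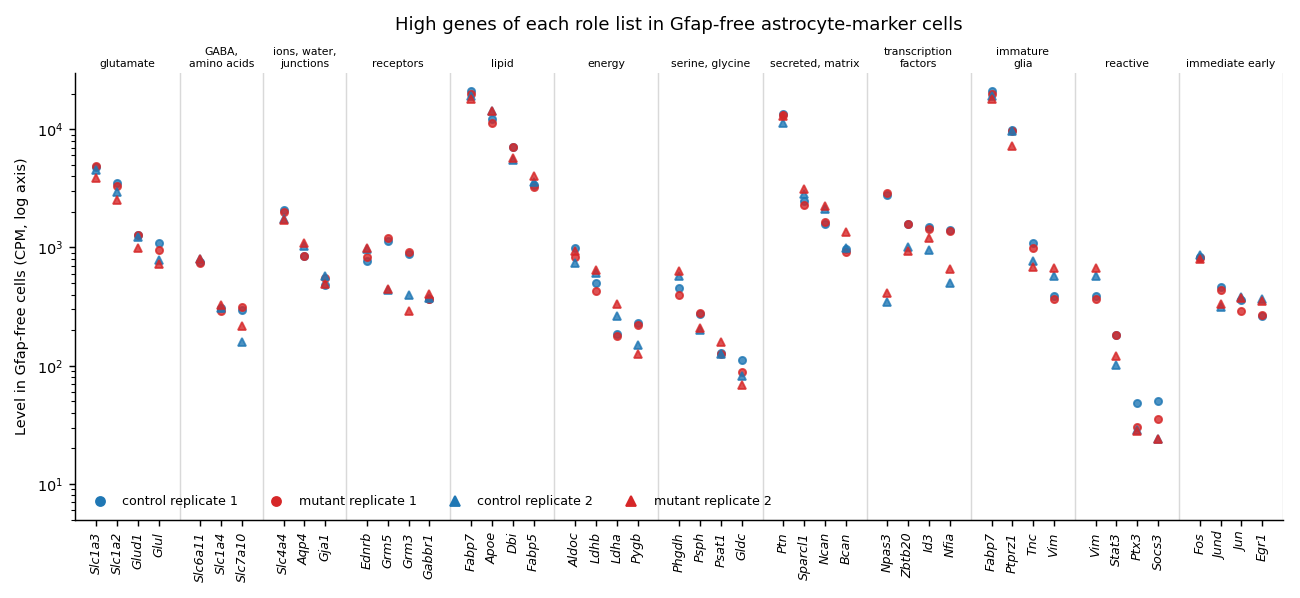
Level in CPM (log axis) of up to 4 of the highest genes of each role list in Gfap-free astrocyte-marker cells, with 1 point per library. The points of a gene mostly lie close together, while for Npas3, Nfia and Grm5 the replicate 1 circles lie clear above the replicate 2 triangles.

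Genes of immature glia were present beside those of mature function. Ptprz1, a receptor phosphatase of radial glia, stood at 9805, 9737, 9569 and 7264 CPM, the matrix gene Tnc at 883 ± 193 CPM (SD, n = 4) and the filament gene Vim at 499 ± 142 CPM. Olig1, a transcription factor best known from the oligodendrocyte lineage and also found in young astrocytes, had 308, 312, 272 and 511 CPM, and Olig2 had 72.9, 65.6, 96.5 and 136 CPM. Both had a lower level here than in cells chosen by Pdgfra, where Olig1 was between 1120 and 1909 CPM. Sox10, which marks committed oligodendrocyte cells, was at 2.56 CPM, and Pdgfra was at 0 by the rule. Egfr, the growth factor receptor of activated stem cells and of young astrocytes, had 291, 313, 267 and 207 CPM.

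Genes of reactive astrocytes were mostly low. Of 20 genes that mark reactive astrocytes 2 were abundant, Vim and the signal transducer Stat3 (146 ± 41.0 CPM, SD, n = 4). The lipocalin gene Lcn2 had 2 UMIs in all and the complement gene C3 had 0 UMIs. Low levels of reactive genes may in part come from selection, since the rule set Gfap, itself a gene of reactive astrocytes, to 0. Of 15 replication and mitosis genes only Pcna was abundant, at 61.4 ± 4.98 CPM, and this list was low by selection, since the rule set Mki67 and Top2a to 0. Immediate early genes were not low. Fos, the leading gene of that list, had 833, 812, 863 and 800 CPM and Jun had 352 ± 42.0 CPM. The tissue was digested with papain and sorted before capture.

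Markers of other cell types differed by type and between libraries. The oligodendrocyte precursor list, led by Olig1, summed to 391, 394, 391 and 665 CPM, and 66.5%, 60.9%, 60.8% and 78.8% of the cells held 3 or more of its UMIs. The neural stem list, led by Egfr, summed to 476, 473, 472 and 323 CPM, with 78.5%, 73.0%, 69.0% and 51.1% of the cells. Neither list was used to call possible doublets. The endothelial list summed to 40.2, 166, 104 and 236 CPM, led by the tight junction gene Cldn5 at 1.90, 87.6, 59.7 and 135 CPM. The mural list summed to 79.6, 69.3, 71.5 and 152 CPM and the fibroblast list to 81.2, 133, 48.0 and 94.9 CPM, led by Pdgfrb (36.8 CPM) and Col1a2 (39.7 CPM). Microglial genes summed to 14.9, 11.6, 2.18 and 2.43 CPM, and erythroid genes to 582, 4.09, 6.06 and 16.4 CPM. The high erythroid value came from 1 cell of control replicate 1, which held 1156 of that library's 1160 Hba-a1 UMIs.

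Cells with Gfap differed from Gfap-free cells in many other genes, in the same way in all libraries. The rule splits these cells by Gfap, so the ratios describe what goes with Gfap and were not tested. Of 3956 genes at 50 CPM or more in either class, outside the rule, 816 (20.6%) were higher in cells with 5 or more Gfap UMIs in all 4 libraries and 1279 (32.3%) were higher in Gfap-free cells in all 4. A 2-fold difference in all 4 libraries was met by 61 genes higher with Gfap and 16 higher without. Since 50 CPM in either class was enough, a gene low in 1 class entered through the class where it was high. These counts are therefore a description only. The median log2 ratio over all 3956 genes was -0.06. Ratios are of CPM with 0.5 UMIs added.

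Carriers of GABA and amino acids, and most receptors, were higher in Gfap-free cells. All 5 genes of GABA and amino acid transport at 50 CPM or more in either class were higher in them in all 4 libraries. The list median was -0.93 (log2, Gfap cells over Gfap-free cells), and 32.3% of all 3956 genes were higher without Gfap in all 4. Slc6a9, 1 of the 5, reached that level only without Gfap (69.3 against 41.6 CPM), so its place in the count was set by selection. Slc6a11 had a mean of 771 CPM in Gfap-free cells and 296 CPM with Gfap, with log2 ratios of -1.41, -1.26, -1.46 and -1.40 by library, so the libraries barely differed. Slc7a10 had a mean log2 ratio of -1.25 ± 0.17 (SD, n = 4). Slc6a11 is on chr6:114131241-114249952 (plus strand, GRCm38). Of 9 receptors at 50 CPM or more in either class 7 were higher without Gfap in all 4 libraries and 2 higher with it. Gabbr2, the other GABA-B receptor subunit, had a mean of 192 CPM in Gfap-free cells and 48.0 CPM with Gfap. It thus reached 50 CPM only without Gfap, and the receptor gene Ntsr2 did so only with Gfap. The places of Gabbr2 and Ntsr2 in the count were therefore set by selection. Grm5 had a mean log2 ratio of -1.44 ± 0.26. Glutamate handling was split, with 2 of 6 genes higher with Gfap and 2 higher without in all 4 libraries (list median -0.12). The ratio of Slc1a2 was 0.13 ± 0.13, no larger than its spread, and that of Slc1a3 was -0.47 ± 0.05.

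Other genes higher in Gfap-free cells included growth and surface genes. Igfbp2, which binds insulin-like growth factors, had 1423 against 469 CPM (mean log2 ratio -1.59 ± 0.16, SD, n = 4). St6galnac5, a sialyltransferase of ganglioside synthesis, had 401 against 120 CPM (-1.73 ± 0.11). The log2 ratio of Inka2, an inhibitor of the kinase Pak4, was -1.97 ± 0.21, and those of the protein kinase C gene Prkcb and the surface gene Sez6l were -1.69 ± 0.24 and -1.60 ± 0.31. The transcript Gm29521 (-1.89 ± 0.57) and the transferrin receptor Tfrc (-1.84 ± 0.59) varied more between libraries. Ptprz1 had -1.14 ± 0.10, Egfr -1.01 ± 0.24 and Olig1 -0.81 ± 0.17. Cldn5 led by size at -5.57 ± 2.12, but its UMIs lay in few cells. Without possible doublets its ratio was 0.23, which the definition of those cells by Cldn5 and other endothelial genes fixed in advance. Inka2, Prkcb, Sez6l, Gm29521, Tfrc and Cldn5 reached 50 CPM only without Gfap, so their places among the leading genes were set by selection.

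Several genes higher with Gfap were close to 0 in Gfap-free cells. Myoc, the myocilin gene, had 1, 3, 0 and 3 UMIs in all the Gfap-free cells of a library and a mean of 92.4 ± 42.0 CPM (SD, n = 4) with Gfap. Cd74 and H2-Ab1, which act in antigen presentation, had means of 2.03 and 7.79 CPM in Gfap-free cells and 61.9 and 83.0 CPM with Gfap. The transcription factor gene Cebpd had 43.6 against 390 CPM, with log2 ratios of 3.15, 3.13, 3.47 and 2.88, and the semaphorin receptor gene Nrp2 had 12.5 against 120 CPM. The lipid droplet gene Cidea (4.54 against 101 CPM), the chaperone gene Hspb8 (10.3 against 76.1), the transporter chaperone gene Emb (5.45 against 58.9), the calmodulin regulator Pcp4 (7.93 against 56.3) and the vesicle priming gene Cadps (22.0 against 130) completed the 10 leading genes. All 10 reached 50 CPM only with Gfap, so their places were set by selection.

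Immediate early genes were higher with Gfap. Of the 14 genes of the immediate early and stress list 11 reached 50 CPM in either class, all 11 were higher with Gfap in all 4 libraries, and their median log2 ratio was 0.83. The zinc finger gene Zfp36 reached that level only with Gfap, and the heat shock genes Hspa1a and Hspa1b, below it in both classes, were at -0.63 ± 1.18 and -1.21 ± 0.62 (SD, n = 4). Of 20 reactive genes 3 reached that level, Vim, Stat3 (0.72 ± 0.17) and Socs3, and Socs3 did so only with Gfap (33.4 against 179 CPM). Fos had 1.18 ± 0.15 and Jun 0.83 ± 0.16 (SD, n = 4), and the filament gene Vim 0.91 ± 0.13. Of 7 energy genes at 50 CPM or more in either class 4 were higher with Gfap in all 4 libraries and none higher without. Over all 3956 genes these shares were 20.6% and 32.3%. Slc16a1, 1 of the 4, reached that level only with Gfap (45.1 against 85.8 CPM), so its place in the count was set by selection. The mitochondrial share also moved with Gfap, with medians of 3.14%, 3.16%, 6.09% and 5.05% in Gfap-free cells and 3.88%, 4.22%, 7.16% and 6.57% with 5 or more Gfap UMIs, and its part in these ratios was not tested. After thinning every cell to 2000 UMIs, which removes the difference in depth, each of the 20 leading genes kept the direction of its mean ratio. In control replicate 1 alone the log2 ratio of Cldn5 turned from -2.47 to 2.50. Mean log2 ratios were then -1.50 for Slc6a11, 3.20 for Cebpd, -1.06 for Sez6l and -3.23 for Cldn5. Those genes were chosen for the size of their ratios, which made a kept direction likely, so the part of depth was not tested.

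The cells with 1 to 4 Gfap UMIs took no part in choosing those 20 genes. Their mean level lay between the other classes for all 20, and in each single library for 15 of them. The genes had been chosen for a wide gap between those classes, and no share over all genes is given, so this is a description only. For Slc6a11 the means ran 771, 598 and 296 CPM from no Gfap through 1 to 4 to 5 or more, and for Cebpd 43.6, 85.3 and 390 CPM. The median depth of the 1 to 4 class was 13980.5, 13193, 12597 and 13358 UMIs, nearer to the Gfap-free cells.

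**Figure D3:**
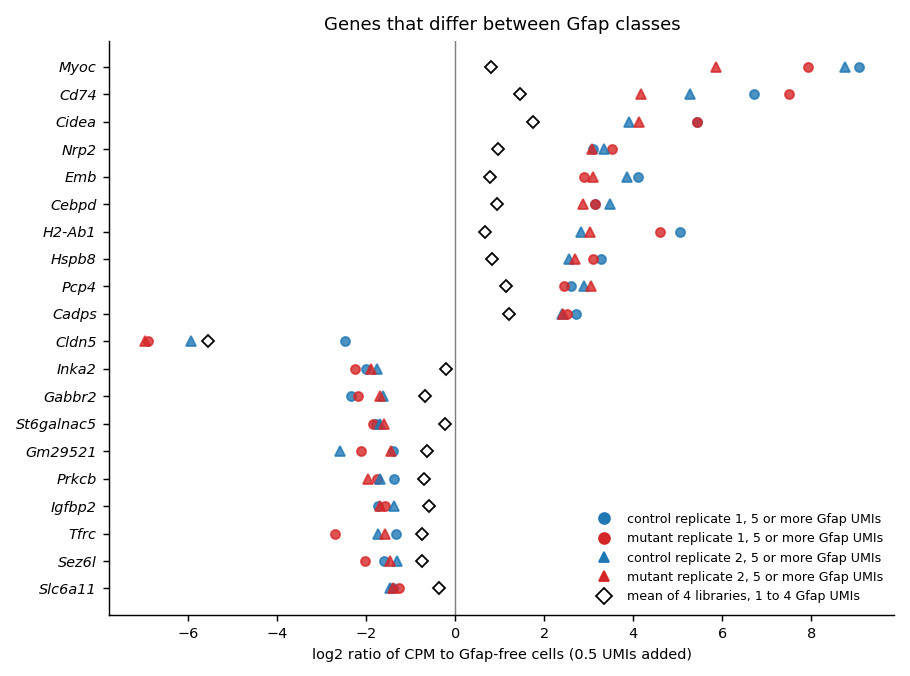
Log2 ratio of CPM, relative to Gfap-free cells, for the 10 genes with the strongest consistent difference in each direction. Filled points are cells with 5 or more Gfap UMIs in each of the 4 libraries, and open diamonds are the mean of the 4 libraries for cells with 1 to 4 Gfap UMIs; the diamonds lie between 0 and the filled points except for Cldn5, whose diamond lies among them.

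The Gfap-free cells were not uniform. Of 3722 abundant genes ranked within each library by the excess of their variance, Cldn5 had the best median rank, followed by Crym and the non-coding RNA Meg3 and then by Itm2a and Col4a1. Cldn5 was found in 0.83%, 1.51%, 1.52% and 3.41% of the cells. Without the possible doublets 9 of the 20 leading genes were the same, and the description below is for the 1301 cells left. The coefficient of variation beyond counting noise had a median over genes of 0.41, 0.42, 0.39 and 0.37.

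Crym, which encodes a thyroid hormone binding protein, then led with a coefficient of variation of 4.96, 4.49, 4.98 and 4.95. Serpinf1, a secreted serpin, had 5.05, 3.81, 3.99 and 3.61, and Agt, the angiotensinogen gene, which is known from astrocytes of ventral and subcortical regions, had 4.74, 2.84, 3.63 and 3.48. Crym was found in 8.29%, 7.42%, 13.1% and 7.21% of the cells, with up to 88 UMIs in 1 cell. Kcnip4 was found in 21.6%, 16.9%, 1.38% and 2.25% of the cells, with at most 129, 82, 2 and 1 UMIs in a cell, and Erbb4 in 25.4%, 32.7%, 9.31% and 9.91%. Both were thus lower in replicate 2, where the rank of Kcnip4 (2 and 3697) rests on a few UMIs. Hopx, Cdkn1a, Sfrp1 and the immediate early genes Nr4a1, Dusp1, Ier2, Btg2, Fosb and Egr1 were also among the 20.

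These genes varied in groups. Over 190 pairs of the 20 genes, 13 had a correlation of residual counts of at least 0.3 in all 4 libraries, and 12 of those were pairs within the immediate early list. Ier2 and Egr1 had Pearson's r of 0.68 to 0.81 between libraries. The remaining pair was Serpinf1 with Pla2g3 (0.36 to 0.56). The correlations are over 398, 391, 290 and 222 cells of a shared library and describe these cells.

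Cells with 3 or more Crym UMIs, examined after its values were seen, numbered 24, 19, 22 and 6. Their median marker sum was 12, 9, 11 and 10.5 UMIs, against 20, 20, 22 and 20.5 in cells with no Crym. Aqp4 was lower in them in every library, with 244.5, 299.6, 322 and 322 CPM against 921, 926, 1131 and 1104 CPM, while Gja1 was higher (mean log2 ratio 0.43) and Slc1a2 was 2810, 2674, 1969 and 1402 CPM against 3621, 3470, 3124 and 2582 CPM. Foxj1, the master factor of motile cilia, was 88.0, 124, 87.8 and 133 CPM against 6.40, 14.6, 16.3 and 8.56 CPM. The Wnt antagonist gene Sfrp1, the calcium binding gene S100a6 and Scrn1 were higher by means of 2.45, 2.24 and 2.14 on the log2 scale, and Igfbp2 was lower in each library, at -2.02 to -3.20, with Grm5 at a mean of -3.05. The values of 6 cells in mutant replicate 2 rest on few UMIs. Crym is on chr7:120186380-120202111 (minus strand, GRCm38).

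Chd8 transcripts were not lower in the mutant libraries. Chd8 (chr14:52198151-52257780, minus strand) had 47.1 CPM in control and 50.4 CPM in mutant of replicate 1 and 73.5 and 78.3 CPM in replicate 2. The log2 change was 0.07 ± 0.35 (SE, edgeR quasi-likelihood test, adjusted p = 1). UMIs are read at the 3′ end of the transcript, outside the floxed exons, so this does not check the deletion.

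No gene passed the test between genotypes when the libraries were compared without a term for replicate. Of 13140 genes, 0 (0%) had an adjusted p below 0.05 in edgeR's quasi-likelihood test on UMIs summed per library, 44 (0.335%) had an unadjusted p below 0.05, and DESeq2 called 0 with 32 at an unadjusted p below 0.05. The median absolute log2 difference between replicates was 0.44 in controls and 0.49 in mutants, larger than the 0.15 and 0.26 between genotypes within replicate 1 and replicate 2. The members of all role lists were among the genes not called. Median log2 changes were -0.15 for 6 glutamate genes, 0.03 for 6 GABA and amino acid carriers, -0.01 for 12 potassium, water and junction genes and 0.04 for 10 receptors, against 0.005 for all genes tested. They were -0.05 for 11 lipid genes, 0.08 for 12 energy genes, 0.09 for 19 transcription factors, -0.04 for 14 immediate early and stress genes and 0.08 for 14 reactive genes. Within replicate 1 and replicate 2 the medians were -0.03 and -0.18 for glutamate genes, 0.09 and 0.03 for receptors, 0.02 and 0.20 for transcription factors and -0.04 and -0.05 for immediate early and stress genes, against -0.0003 and 0.03 for all genes. They differed in sign between replicates for GABA and amino acid carriers (-0.04 and 0.34), potassium, water and junction genes (-0.02 and 0.07), energy genes (-0.06 and 0.17) and reactive genes (-0.07 and 0.20). For lipid genes they were 0.02 and 0.006. Slc1a2 changed by -0.16 ± 0.30 and Slc7a10 by 0.21 ± 0.43 (log2 ± SE). Of the astrocyte gene list supplied with the study 178 genes were matched, 170 were tested and 0 were called with or without the replicate term.

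With the replicate number as a block, which is also the Cell Ranger version, 23 genes (0.175%) passed, 20 higher and 3 lower in mutants, and 508 (3.87%) had an unadjusted p below 0.05. The 10 smallest p-values among those higher in mutants belonged to Mgp, Pnp, Slco1a4, Dcn, Itm2a, Flt1, Fn1, Ptprb, Csrp2 and Vwf, and the lower ones were Hba-a1, Hbb-bt and Unc5d. Mgp, Dcn and Fn1 are matrix genes of vessel and meningeal cells, Flt1, Ptprb, Vwf and Slco1a4 are endothelial genes, and Hba-a1 and Hbb-bt encode haemoglobin. The 3 erythroid genes tested had a median log2 change of -8.21 within replicate 1 and 1.42 within replicate 2, and 0 of them had the same sign in both. In control replicate 1 only 1 cell held 3 or more erythroid UMIs, and it held 3934. For 21 of the 23 genes more than 50% of the UMIs came from the 235 possible doublets, which held 18.3% of all UMIs. Mgp, which is on none of the lists that define those cells, had 149, 636, 4 and 27 UMIs in all members and 0, 3, 1 and 2 without them. The VEGF receptor gene Flt1 had 48, 293, 73 and 158 UMIs and then 6, 1, 4 and 5, but Flt1 and Dcn are on the lists, so their loss was fixed by the definition. Without the possible doublets 1 of 12522 genes (0.00799%) passed the same block test, and it was Pnp. Mgp and Flt1 were then too low to be tested.

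Unc5d, a netrin receptor, was lower in mutants within both replicates, with 138 against 71.1 CPM in replicate 1 and 29.8 against 15.2 CPM in replicate 2. Its blocked log2 change was -0.96 ± 0.18 (SE, edgeR adjusted p = 0.0457), and without possible doublets -0.78 ± 0.18 (adjusted p = 0.985). In control replicate 1, 103 of its 941 UMIs lay in 1 cell. Crym had 70.7, 66.9, 89.98 and 38.5 CPM in all members, with a log2 change of -0.61 ± 0.37 (SE). Blocked and without possible doublets its change was -1.37 ± 0.24 (edgeR adjusted p = 0.0816). That fit changed both the model and the cells, so its value is not comparable with the levels given. Olig1 was higher in the mutant of replicate 2 alone (0.91 on the log2 scale, against 0.02 in replicate 1), and its change was 0.48 ± 0.32 (edgeR adjusted p = 1).

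**Figure D4:**
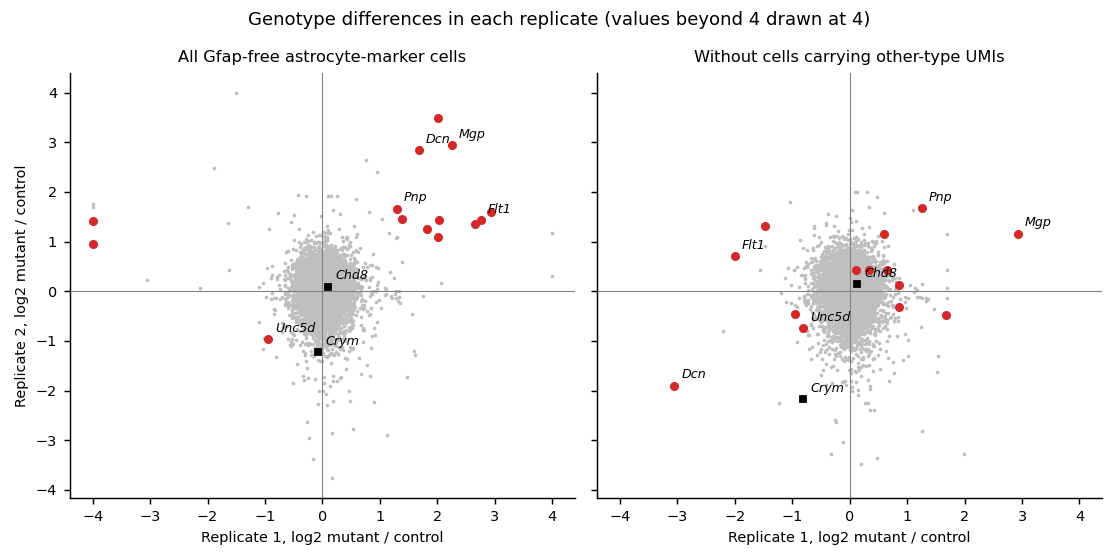
Log2 ratio of mutant to control CPM in replicate 1 (x axis) and replicate 2 (y axis) for the 9273 tested genes at 10 CPM or more, in all Gfap-free cells (left) and without possible doublets (right), with values beyond 4 in either direction drawn at 4. Red points are the 14 of the 23 genes called with the replicate block that reach that level and black squares are Chd8 and Crym; on the right most red points have moved, while Pnp stays at about the same place.

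Pnp, the gene of purine nucleoside phosphorylase, which breaks down inosine and guanosine, was higher in both mutant libraries. It had 268 UMIs (39.2 CPM) in control and 587 (96.0 CPM) in mutant of replicate 1, and 148 (35.9 CPM) and 376 (114 CPM) in replicate 2, so the genotypes did not overlap. That was 2.45-fold in replicate 1 and 3.18-fold in replicate 2. The UMIs were spread over 189, 288, 110 and 179 cells with at most 12 in 1 cell, and 16.5% of them lay in possible doublets. The log2 change was 1.45 ± 0.23 (SE) with an unadjusted p of 0.0023 and an adjusted p of 1 in edgeR. With the replicate block it was 1.45 ± 0.17 (edgeR adjusted p = 0.00207), and without possible doublets 1.44 ± 0.17 (adjusted p = 0.00102).

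Pnp is on chr14:50931082-50965237 (plus strand, GRCm38), 1.23 Mb from Chd8 on the same chromosome. Of 52 tested genes within 3 Mb of Chd8, a window chosen after the value of Pnp was seen, Pnp was the single one called with the block, and the choice of window fixed that Pnp was in it. Their median log2 change was 0.06, against 0.005 for all genes tested. The annotated span of Pnp contains its near-identical neighbour Pnp2 (chr14:50955992-50964749), so reads may be split between them and the value of each is uncertain. Pnp2 had 6, 1, 6 and 0 UMIs. The part of this position in the difference was not tested.

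The Pnp level in other cells of the same libraries is given for comparison. In cells with 1 to 4 Gfap UMIs it was 1.84-fold in replicate 1 and 2.88-fold in replicate 2, with 5 or more Gfap UMIs 1.26-fold and 1.92-fold, and in dividing astrocyte-marker cells 1.21-fold and 2.23-fold. In cells chosen by Pdgfra it was 1.04-fold and 1.02-fold at 19.98 to 25.7 CPM, and in Dlx1 and Dlx2 cells 1.04-fold and 1.27-fold at 13.2 to 16.7 CPM. Microglia-marker cells, with 36 to 662 Pnp UMIs per library, had 0.87-fold and 2.34-fold. The difference between these classes was not tested.

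**Figure D5:**
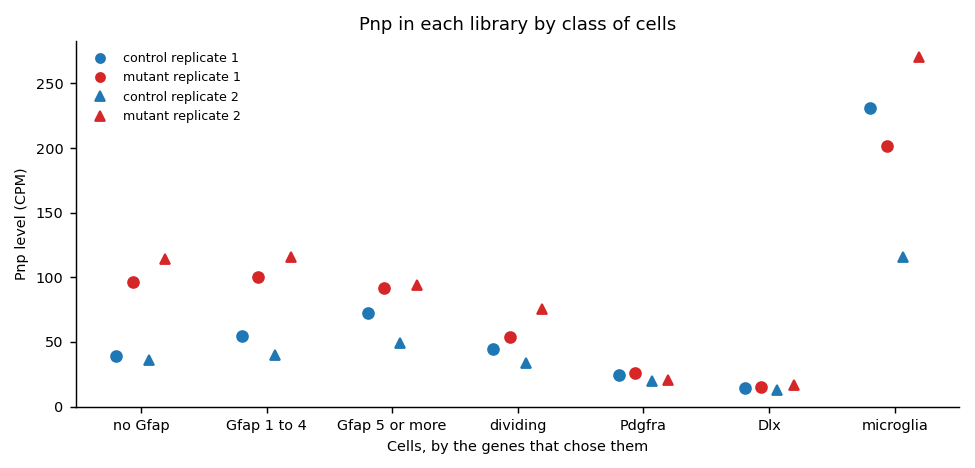
Pnp level in CPM in each of the 4 libraries (points) for 7 classes of cells named by the genes that chose them. In Gfap-free cells the mutant libraries lie at 96.0 and 114 CPM and the controls at 39.2 and 35.9 CPM, while in Pdgfra and Dlx cells all points lie close together.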

How the data were processed

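Libraries were made with a 3′ single-cell kit and each held cells of 3 pooled mice. The authors aligned reads and deposited raw UMI counts per gene and barcode, without normalization, as Cell Ranger output. The submitters' notes name Cell Ranger 3.0 and mm10, whereas the matrix headers name 7.0.0 or 5.0.1. Counts were used as deposited. Counts of the members were summed per library, and edgeR 4.0.16 (R 4.3.3) compared the genotypes (TMM, filterByExpr, quasi-likelihood test, Benjamini-Hochberg over all genes), with DESeq2 1.42.0 and other filters and limits as alternatives. Whether the libraries came from separate litters is not given in the sources used here, so p-values measure the spread between these libraries. Deviations of same-numbered libraries from their genotype mean correlated between genotypes (r = 0.82 over 13140 genes), and the headers tie each number to a software version, so the replicate block was used beside the unblocked test. Each fit was also tried on its own simulated data, drawn at the spread that its own model gave. Only the data for the blocked fit held a replicate difference shared by the genotypes. The fit without a block recovered none of its changed genes, and the blocked fit most of its own with some false calls. As the simulated data differed, these recoveries do not compare the fits. An empty list without a block does not show that genes did not change. Genes were named by a fixed rule: rule genes and markers, up to 4 of the highest genes per list, the leading genes of each comparison and the leading gene of each other cell type. Members and lists were chosen with earlier results of these data known. Coordinates are from GENCODE vM21, and 23 published astrocyte genes were matched through synonyms. A few genes of the lists are not reported here.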

Additional observations from a re-analysis of the deposited data

Results flagged for a closer look

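In total 170 barcodes within the limits on UMIs and genes met the gene part of the rule but had more than 10% mitochondrial UMIs, and were left out of every comparison. They were 7, 14, 101 and 48 in control and mutant of replicate 1 and control and mutant of replicate 2, or 1.44%, 2.94%, 23.5% and 15.4% of the barcodes that met the gene part. Their median depth was 3282, 4724.5, 4855 and 4386 UMIs and their Slc1a2 level was 4470, 2350, 3210 and 3340 CPM. What set their number in replicate 2 was not tested.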

How the results depend on the processing

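The count of genes called between genotypes was 0 without a block under every alternative tried, leaving out each library included. It was 23 with the replicate block, 6 with the replicate block in DESeq2 and 1 with the replicate block and without possible doublets. The removal of possible doublets, chosen after seeing the data, left 9 of the 20 most variable genes and turned the Cldn5 ratio between Gfap classes to 0.23. A block with 1 library left out was not fitted. The genotype difference in the share of Gfap-free cells ran from -2.95 to -0.29 percentage points over libraries left out, smallest without control replicate 2, and within replicate 1 it was positive with a mitochondrial limit of 5% (0.064), at least 3 marker UMIs (0.012), the rule after thinning (0.12) and as a share of cells with at least 5 marker UMIs (1.41). That in the share without Gfap ran from -8.83 to 1.35, positive without control replicate 2.

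Of 293 alternatives for the log2 genotype change of 18 genes, 260 kept direction and side of the threshold, 20 passed it with the replicate block and 13 turned direction. Over libraries left out the change ran from -0.25 to 0.41 for Chd8, -0.40 to 0.035 for Slc1a2, -0.18 to 0.75 for Slc7a10, -0.54 to 5.35 for Mgp, -6.68 to 0.15 for Hba-a1 and -2.50 to 0.55 for Unc5d. Chd8 was at -0.12 with a mitochondrial limit of 5%, Hba-a1 and Hbb-bt were at 0.97 and 0.80 with at least 3 marker UMIs, and Fn1 was at -0.65 without possible doublets and -0.67 with the block as well. The cause was not tested. Pooling 2 libraries per genotype limits every genotype comparison, and a lone library in a left-out fit is assumed to vary like the others.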
